A study of Mus musculus with 9 samples.

Results

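Multinucleated cells can form by fusion of macrophages, and 9 genes of that programme were followed after talc was placed in the mouse chest. They are Dcstamp, Ocstamp, Acp5, Ctsk, Atp6v0d2, Nfatc1, Mitf, Oscar and Calcr, chosen by name from the 25652 genes of the authors' table, and all 9 were in it. All 9 passed the filter on low counts. Wild-type (WT) mice received 200 µL of talc in saline at 2.0 g/kg, injected into the left side of the chest by way of the diaphragm. Talc is an insoluble magnesium silicate mineral. Tissue was taken 30 min after talc (called day 0), at day 3 and at day 9, and polyadenylated RNA of 3 libraries per day was sequenced. Day 0 is thus an early time after the injection and not an untreated control, and untreated or saline mice were not analysed here. The labels call the tissue adhesion tissue between chest wall and lungs in one place and left lung parenchyma joined to the chest in another. They give no strain, sex or age of the mice.

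Macrophages that meet a particle they cannot digest may fuse into foreign-body giant cells, and the same precursors fuse into osteoclasts, the cells that resorb bone. In osteoclasts, colony stimulating factor 1 keeps the precursor alive. RANK ligand acting through its receptor RANK, together with a separate co-stimulatory signal from adaptor-coupled receptors such as Oscar, raises Nfatc1. Nfatc1, with Mitf and PU.1, drives the fusion protein Dcstamp, the proton pump subunit Atp6v0d2 and the enzymes Acp5 and Ctsk, which dissolve and digest bone.

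Values are CPM, read counts scaled to a common library size with trimmed-mean (TMM) factors, from totals of 12769059 to 18701063 counts per library. A gene was called when its adjusted p, from edgeR's quasi-likelihood F test with Benjamini-Hochberg adjustment over all 14794 tested genes, was under 0.05. These are bulk libraries, so fewer cells of a type and less RNA per cell cannot be told apart. The labels do not say that the 3 libraries of a day came from separate mice, and if they did not, the p-values speak of spread among libraries alone, which could come from the sampling of tissue or from technical steps.

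The libraries differed in tissue makeup within a day. Alveolar type 2 markers, genes of the surfactant-making cells of lung, summed to 4808 to 5264 CPM at day 0, 101 to 5720 CPM at day 3 and 601 to 2676 CPM at day 9. Cartilage markers were high in day 0 replicate 3 (694 CPM), day 3 replicate 1 (1847 CPM) and day 9 replicate 1 (2510 CPM), and at 24.1 to 225 CPM in the other 6 libraries. Skeletal muscle markers summed to 39250 to 95330 CPM over the 9 libraries. The 5 melanocyte markers, searched because Mitf is also the master factor of pigment cells, summed to under 1 CPM in every library, and Tyr was at 0 in all of them.

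The 9 genes did not move together. Atp6v0d2 was the gene with the greatest change, 15.1-fold higher at day 9 than at day 0. Dcstamp was 3.53-fold and Mitf 1.86-fold higher at day 9 than at day 0, and Ctsk was 4.68-fold higher at day 9 than at day 3. The fold changes of Ocstamp, Acp5, Oscar and Calcr did not pass in any comparison. An F test for any difference between days passed for 5 of the 9, Dcstamp (adjusted p = 0.0088), Ctsk (adjusted p = 0.0316), Atp6v0d2 (adjusted p = 0.000937), Nfatc1 (adjusted p = 0.0337) and Mitf (adjusted p = 0.0207), against 25.7% of all tested genes in edgeR. It passed for 2 of them, Dcstamp and Atp6v0d2, without any 1 day 0 library, and for 3, Dcstamp, Atp6v0d2 and Mitf, without day 9 replicate 1 or without day 9 replicate 4. The share of all tested genes that passed in these smaller fits was not counted, so the lower counts cannot be read as particular to the 9.

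**Figure D1:**
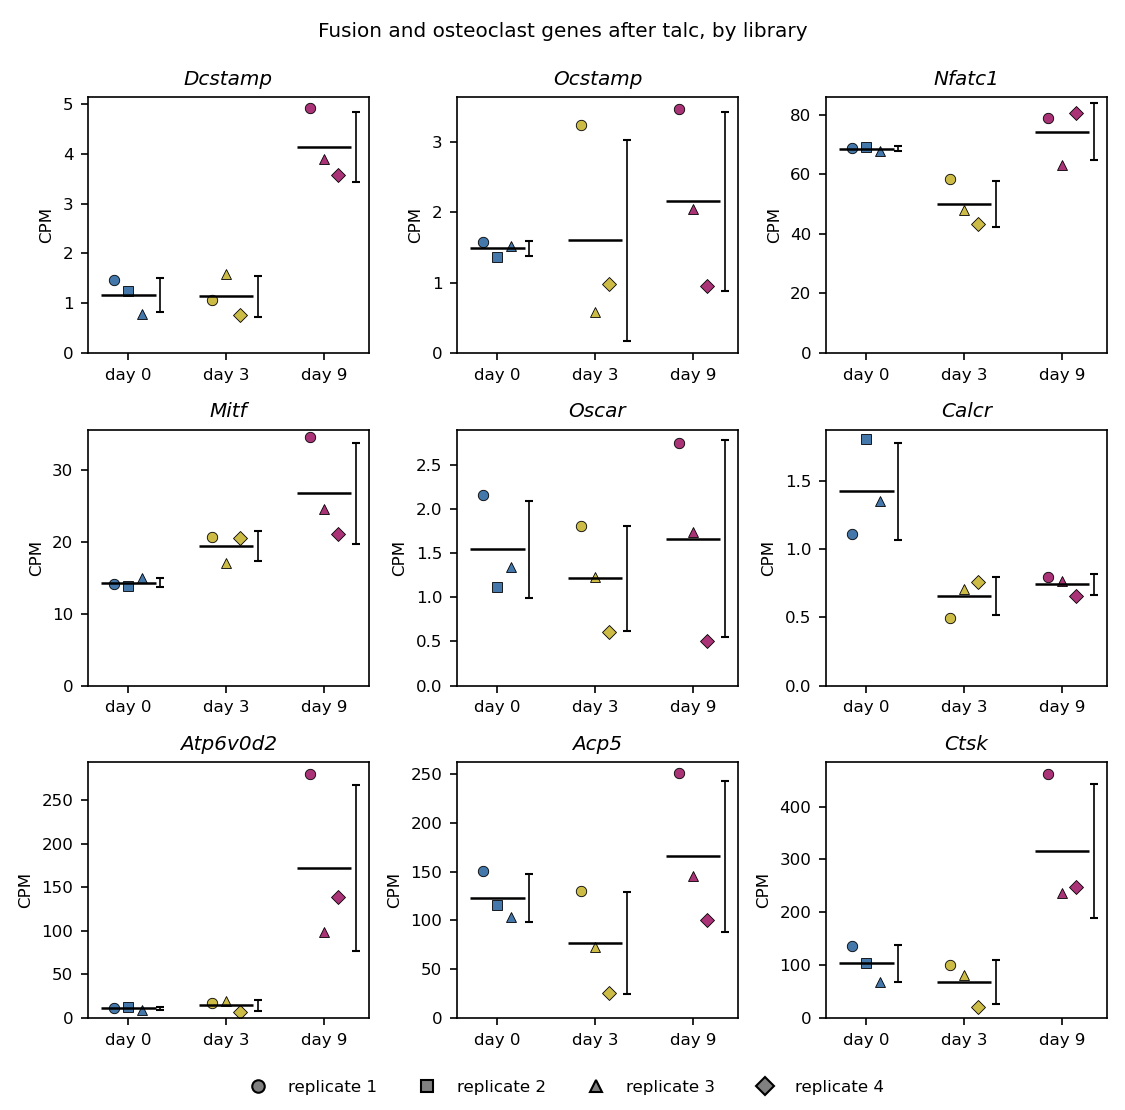
CPM (linear axis from 0) of the 9 genes by day after talc, with 1 point per library, its shape giving the replicate number, a line at the mean of 3 libraries and a bar of 1 SD. The 3 day 9 libraries of Dcstamp, Atp6v0d2 and Ctsk lie above all others, while Ocstamp, Oscar and Acp5 spread widely within days 3 and 9.

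Promoters are shown for Acp5, Ctsk and Oscar, because these are classical targets of Mitf, PU.1 and Nfatc1 in mouse osteoclasts, and the regulators were measured in the same libraries. RefSeq promoter windows (GRCm38.p6, 250 bases before to 50 after the start) were at hand for 5 of the 9 genes, as 10 windows. Capitals mark the E-box CATGTG, a site type bound by Mitf, and the PU.1 core GAGGAA, each on either strand. The windows run 5′ to 3′ on the gene's strand, for Acp5 at chr9:22130549-22130848 (minus strand, the most downstream of 3 starts), for Ctsk at chr3:95498960-95499259 (plus strand) and for Oscar at chr7:3616108-3616407 (minus strand).
Acp5: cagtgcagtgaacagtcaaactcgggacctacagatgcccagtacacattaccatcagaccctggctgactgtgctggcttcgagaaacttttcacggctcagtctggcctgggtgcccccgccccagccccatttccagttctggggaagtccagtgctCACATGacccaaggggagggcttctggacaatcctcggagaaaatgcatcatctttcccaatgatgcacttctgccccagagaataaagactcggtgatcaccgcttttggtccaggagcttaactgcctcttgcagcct
Ctsk: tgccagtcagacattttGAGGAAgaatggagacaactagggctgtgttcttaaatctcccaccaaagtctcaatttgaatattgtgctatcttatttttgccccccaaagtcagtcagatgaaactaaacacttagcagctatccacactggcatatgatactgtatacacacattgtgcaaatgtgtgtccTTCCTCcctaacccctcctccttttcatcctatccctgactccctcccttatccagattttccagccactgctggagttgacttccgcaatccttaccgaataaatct
Oscar: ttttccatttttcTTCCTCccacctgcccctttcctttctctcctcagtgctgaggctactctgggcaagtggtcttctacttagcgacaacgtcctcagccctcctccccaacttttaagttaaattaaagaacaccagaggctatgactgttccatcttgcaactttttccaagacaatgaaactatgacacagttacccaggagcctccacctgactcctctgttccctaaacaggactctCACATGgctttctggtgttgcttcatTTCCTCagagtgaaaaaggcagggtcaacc

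In this Acp5 window the E-box began at base -90 from the start, and in the Oscar window at base -6. PU.1 cores began at bases -233 and -58 in Ctsk and at bases -237 and 21 in Oscar. The other 2 Acp5 windows, not shown, held no E-box. CATGTG was found in 2 of the 10 windows of these genes and in 14.2% of all 32851 promoters of this length, and GAGGAA in 2 of the 10 and in 28.3%. The NFAT core GGAAA, which can overlap a PU.1 core and does so in the Oscar window, was in 8 of the 10 windows of these genes and in 61.3% of all promoters. The E-box CACGTG (7.15% of all promoters) and the AP-1 motif TGANTCA (7.81%) were also searched on both strands, and these letters were not in the 10 windows.

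Dcstamp and Ocstamp encode transmembrane proteins that macrophages need to fuse. Dcstamp was at 1.46, 1.25 and 0.788 CPM in day 0 replicates 1, 2 and 3, at 1.06, 1.59 and 0.761 CPM in day 3 replicates 1, 3 and 4, and at 4.93, 3.90 and 3.57 CPM in day 9 replicates 1, 3 and 4. Every day 9 library lay above every earlier one, and days 0 and 3 overlapped. The counts behind these values were low, 49 to 76 reads per library at day 9 and 10 to 27 at days 3 and 0. With edgeR, the log2 fold change of Dcstamp was 1.82 ± 0.37 (SE, adjusted p = 0.0105) at day 9 against day 0 and 1.85 ± 0.38 (SE, adjusted p = 0.0224) at day 9 against day 3. At day 3 against day 0 it was -0.03 ± 0.38 (SE, adjusted p = 0.967). Without the 3 libraries high in cartilage genes (day 0 replicate 3, day 3 replicate 1 and day 9 replicate 1) the day 9 against day 0 value was 1.45 and did not pass (edgeR adjusted p = 0.123). The difference from day 3 no longer passed when any 1 of 4 libraries was left out in the edgeR fit, with adjusted p = 0.0562 without day 3 replicate 1 and 0.0676, 0.0594 and 0.0601 without day 9 replicates 1, 3 and 4.

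Ocstamp had 1.58, 1.37 and 1.52 CPM in the day 0 libraries, 3.24, 0.588 and 0.989 CPM in day 3 replicates 1, 3 and 4, and 3.48, 2.05 and 0.947 CPM in day 9 replicates 1, 3 and 4. Its highest values at days 3 and 9 were both in replicate 1, the libraries with the most cartilage RNA, and the 3 days overlapped. In day 0 replicate 3, also high in cartilage markers (694 CPM), Ocstamp lay between the other libraries of that day. With edgeR the log2 fold change of Ocstamp was 0.53 ± 0.66 (SE, 95% interval -0.97 to 2.03, adjusted p = 0.591) at day 9 against day 0. It was 0.070 with bone and cartilage markers as a covariate and 0.019 without day 9 replicate 1, and it turned to -0.054 with alveolar type 2 markers as a covariate.

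Atp6v0d2, the d2 subunit of the membrane sector of the vacuolar proton pump (V-ATPase), is abundant in osteoclasts and in some macrophages, and osteoclast precursors of mice without it fuse poorly. It was at 12.0, 12.8 and 9.51 CPM in the day 0 libraries, at 17.3, 19.2 and 6.85 CPM in day 3 replicates 1, 3 and 4, and at 280.2, 98.7 and 138.5 CPM in day 9 replicates 1, 3 and 4. All 3 day 9 libraries stood far above the 6 earlier ones, although they differed among themselves, while days 0 and 3 overlapped. With edgeR the log2 fold change was 3.91 ± 0.49 (SE, adjusted p = 0.001) at day 9 against day 0, 3.57 ± 0.48 (SE, adjusted p = 0.00737) at day 9 against day 3 and 0.34 ± 0.45 (SE, adjusted p = 0.616) at day 3 against day 0. The first of these passed in all 21 alternative settings, with log2 values between 3.25 and 4.22.

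Other pump subunits had smaller fold changes at day 9, and some were called already at day 3. At day 3 against day 0, 8 of 17 tested V-ATPase genes were called, all higher, where 12.9% of all tested genes were called higher, with a median log2 fold change of 0.59, against 0.05 over all tested genes. These included Tcirg1 (1.19), while the 95% interval of Atp6v0d2 there, -0.69 to 1.37, covers that median. By day 9, 15 of the 17 were called, all higher, where 15.2% of all genes were, with a median against day 0 of 0.97, where all genes had 0.01. Tcirg1, the a3 subunit that places the pump at the resorbing membrane, was at 275.5, 153.6 and 186.6 CPM in day 9 replicates 1, 3 and 4, against 43.5, 51.8 and 45.5 CPM in the day 0 libraries (edgeR log2 fold change 2.13, adjusted p = 0.000395). The catalytic subunit gene Atp6v1a, Atp6v1c1 and Atp6v1b2 were next, with log2 fold changes of 1.77, 1.77 and 1.74. Atp6v0d1, the d subunit found in most cells, averaged 92.2 ± 13.3 CPM in day 9 libraries and 52.1 ± 1.01 CPM in those of day 0 (SD, n = 3 each). The log2 ratio of Atp6v0d2 to Atp6v0d1 averaged 0.77 ± 0.56 at day 9 and -2.19 ± 0.25 at day 0 (SD, n = 3 each), a difference of 2.96 (exact permutation test, two-sided p = 0.1, the smallest that 3 against 3 allows).

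**Figure D2:**
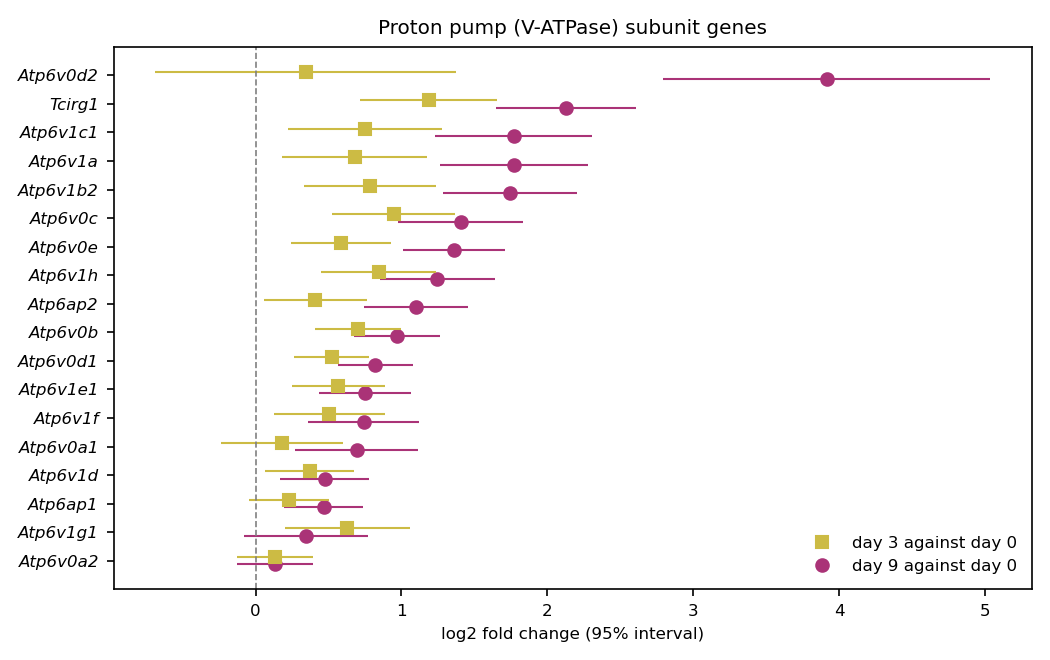
log2 fold changes (points) with 95% intervals (lines) of Atp6v0d2 and the 17 other tested V-ATPase genes, ordered by the value at day 9 against day 0. Atp6v0d2 has the highest value at day 9 (3.91) and an interval across 0 at day 3 (0.34), whereas Tcirg1 was called in both comparisons (2.13 and 1.19).

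Nfatc1 and Mitf are transcription factors, Nfatc1 the calcium-driven switch of osteoclast formation and Mitf a partner of Tfe3 and Tfeb at lysosomal and osteoclast genes. Nfatc1 was at 68.7, 69.3 and 67.8 CPM in the day 0 libraries, at 58.5, 48.1 and 43.4 CPM in day 3 replicates 1, 3 and 4, and at 79.0, 63.3 and 80.6 CPM in day 9 replicates 1, 3 and 4. The day 3 libraries were the lowest 3 of the 9, and days 9 and 0 overlapped. Nfatc1 at day 9 was above its day 3 level by 0.57 ± 0.14 on the log2 scale (SE, edgeR adjusted p = 0.0379), and its day 9 against day 0 value was 0.11 ± 0.14 (SE, edgeR adjusted p = 0.574). Its day 3 against day 0 value was -0.46 ± 0.14 (SE, edgeR adjusted p = 0.0545), and it passed as lower with DESeq2 (adjusted p = 0.00588) and limma-voom (adjusted p = 0.0493), without day 3 replicate 1 (0.0267) and without day 3 replicate 3 (0.0356). The difference between days 9 and 3 no longer passed in edgeR without day 0 replicates 1, 2 or 3 (adjusted p = 0.0721, 0.0728 and 0.0646), without day 3 replicate 4 (0.0795) or without day 9 replicates 1 or 4 (0.0837 and 0.0988).

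Mitf was at 14.1, 13.9 and 15.0 CPM in the day 0 libraries, at 20.7, 17.0 and 20.6 CPM in day 3 replicates 1, 3 and 4, and at 34.6, 24.6 and 21.1 CPM in day 9 replicates 1, 3 and 4. The 3 days did not overlap, day 9 being highest and day 0 lowest, with the lowest day 9 library close to the highest of day 3. With edgeR the log2 fold change of Mitf was 0.90 ± 0.18 (SE, adjusted p = 0.0101) at day 9 against day 0, 0.44 ± 0.18 (SE, adjusted p = 0.134) at day 3 against day 0 and 0.46 ± 0.18 (SE, adjusted p = 0.148) at day 9 against day 3. Without the 3 libraries high in cartilage genes the first of these was 0.70 and did not pass (edgeR adjusted p = 0.0691). Mitf has several starts, and gene counts do not tell its isoforms apart.

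Of 13 other transcription factor genes used by osteoclasts, 4 were called higher and 2 lower at day 9 against day 0, where 15.2% and 5.54% of all genes were. Spi1, which encodes PU.1, was at 86.1 ± 17.1 CPM in day 9 libraries and 25.8 ± 1.26 CPM in those of day 0 (SD, n = 3 each, edgeR adjusted p = 0.000239). Tfec and Tfe3, of the Mitf family, had log2 fold changes of 1.67 and 0.97 in this comparison, and Tfeb, of the same family, had -0.36 and did not pass. Fos, the AP-1 factor without which mice form no osteoclasts, averaged 30.3 ± 0.905 CPM in day 9 libraries and 262 ± 53.8 CPM in those of day 0 (SD, n = 3 each, edgeR log2 fold change -3.11, adjusted p = 0.000187), and Jun was lower too (-1.17). Fos was already at 48.6 ± 14.2 CPM in day 3 libraries (SD, n = 3, edgeR log2 fold change -2.43 against day 0, adjusted p = 0.000652). Among 8 tested brakes on osteoclast formation at day 9 against day 0, Lilrb4a, an inhibitory receptor, rose (3.41) and Nfkbia, the NF-κB inhibitor gene, fell by 1.35 on the log2 scale. The repressor gene Irf8 had a log2 value of 0.38 and did not pass. Day 0 was 30 min after the injection, and whether Fos, Jun and Nfkbia were raised at that time was not tested.

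Oscar, the osteoclast-associated collagen receptor, and Calcr, the calcitonin receptor of mature osteoclasts, were scarce. Oscar was at 2.17, 1.12 and 1.35 CPM in the day 0 libraries, at 1.81, 1.23 and 0.609 CPM in day 3 replicates 1, 3 and 4, and at 2.75, 1.74 and 0.51 CPM in day 9 replicates 1, 3 and 4. The days overlapped, and the edgeR log2 fold change at day 9 against day 0 was 0.11 ± 0.62 (SE, 95% interval -1.30 to 1.52, adjusted p = 0.914). Its direction turned without day 9 replicate 1 (-0.43) and without day 0 replicate 2 (-0.07).

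Calcr was at 1.11, 1.81 and 1.35 CPM in the day 0 libraries, at 0.498, 0.705 and 0.761 CPM in day 3 replicates 1, 3 and 4, and at 0.797, 0.769 and 0.655 CPM in day 9 replicates 1, 3 and 4. All 6 later libraries were below the 3 of day 0, on counts of 8 to 15 reads against 19 to 29. With edgeR the log2 fold change was -1.11 ± 0.37 (SE, adjusted p = 0.0754) at day 3 against day 0 and -0.93 ± 0.37 (SE, adjusted p = 0.11) at day 9 against day 0, neither of which passed. Calca, the gene of both calcitonin and the neuropeptide CGRP, which gene counts do not tell apart, was higher at day 9 than at day 0, at 3.40, 11.5 and 9.54 CPM in day 9 replicates 1, 3 and 4, against 0.878, 0 and 0.507 CPM in the day 0 libraries (edgeR adjusted p = 0.0129).

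Upstream of these genes, 5 of 12 ligand and receptor genes were called at day 9 against day 0, all higher, where 15.2% of all genes were. Tnfrsf11a, which encodes RANK, was at 25.0, 11.7 and 15.9 CPM in day 9 replicates 1, 3 and 4, against 5.38, 4.31 and 4.11 CPM in the day 0 libraries, and passed in edgeR with a log2 fold change of 1.93 (adjusted p = 0.00199). Tnfrsf11b, the decoy receptor osteoprotegerin that blocks RANK ligand, was at 15.9, 20.4 and 26.9 CPM in day 9 replicates 1, 3 and 4, against 2.75, 2.18 and 3.32 CPM in the day 0 libraries (2.93, adjusted p = 0.000287). Receptor and decoy were thus both higher, with no overlap of the 2 days. Tnfsf11, the RANK ligand gene, averaged 1.84 ± 0.889 CPM in day 9 libraries and 2.72 ± 0.614 CPM in those of day 0 (SD, n = 3 each) and did not pass (edgeR adjusted p = 0.518). Csf1 and its receptor gene Csf1r had log2 fold changes of 1.58 and 1.42 and were already called at day 3 (1.34 and 1.31).

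Genes of the adaptors and kinases that carry the co-stimulatory signal were called in 9 of 12 cases as higher and in 1, Traf6, as lower at day 9 against day 0, where 15.2% and 5.54% of all genes were, with a median log2 fold change of 1.24. Macrophage markers were higher in the same libraries, with 7 of 8 called, and their part in this list was not tested. Trem2, a lipid-sensing receptor, Pira2, an activating receptor, Fcer1g and Tyrobp, the adaptors that Oscar and Trem2 use, had log2 fold changes of 5.69, 3.28, 2.08 and 2.04. Src, the kinase of the osteoclast ruffled border, was called at day 9 against day 3 alone (1.38, edgeR adjusted p = 0.041).

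Acp5, tartrate-resistant acid phosphatase, and Ctsk, the collagen-digesting protease cathepsin K, are the classical osteoclast enzymes, and activated macrophages and fibroblasts may also make them. Acp5 was at 150.1, 115.6 and 103.3 CPM in the day 0 libraries, at 130.3, 72.7 and 26.0 CPM in day 3 replicates 1, 3 and 4, and at 250.8, 145.8 and 100.1 CPM in day 9 replicates 1, 3 and 4. The days overlapped, with day 3 replicate 4 the lowest and day 9 replicate 1 the highest. Its edgeR log2 fold change was 0.43 ± 0.53 (SE, adjusted p = 0.585) at day 9 against day 0 and 1.12 ± 0.53 (SE, adjusted p = 0.22) at day 9 against day 3. Without day 9 replicate 1 the first of these was -0.001.

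Ctsk was at 137.1, 104.7 and 67.7 CPM in the day 0 libraries, at 100.1, 81.6 and 20.5 CPM in day 3 replicates 1, 3 and 4, and at 462.2, 236.9 and 248.1 CPM in day 9 replicates 1, 3 and 4. The day 9 libraries were the highest 3 of the 9, and days 3 and 0 overlapped. With edgeR the log2 fold change of Ctsk was 2.23 ± 0.56 (SE, adjusted p = 0.0436) at day 9 against day 3 and 1.61 ± 0.55 (SE, adjusted p = 0.0696) at day 9 against day 0. The difference from day 3 did not pass in edgeR without day 0 replicates 1, 2 or 3 (adjusted p = 0.0689, 0.0784 and 0.0605), without day 3 replicate 1 (0.0522) or without day 9 replicates 1, 3 or 4 (0.117, 0.0773 and 0.0874), and that from day 0 passed without day 3 replicate 4 (0.0114). The 8 fibroblast markers summed to 5130 to 7621 CPM at day 0, 5691 to 12890 CPM at day 3 and 21430 to 23870 CPM at day 9. Of these 8, 6 were called higher by edgeR at day 9 against day 0 and 6 at day 9 against day 3, where 15.2% and 5.19% of all genes were. The median log2 fold changes of the 8 were 1.36 and 1.42. Col1a1 (1.37 and 1.41) and Pdgfra (-0.07 and 0.32) did not pass in either comparison. The part of the fibroblast markers in the levels of Ctsk was not tested.

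Osteoblast and osteocyte genes, of the cells that build and maintain bone, were present in most libraries and were lowest where Acp5 and Ctsk were lowest. The 6 genes Bglap, Bglap2, Ibsp, Sp7, Phex and Dmp1, a list made after the data were seen, summed to 286, 243 and 158 CPM in the day 0 libraries, 119, 63.6 and 2.36 CPM in day 3 replicates 1, 3 and 4, and 208, 163 and 122 CPM in day 9 replicates 1, 3 and 4. Day 3 replicate 4, where Acp5 and Ctsk were lowest, had 0 reads of Sp7, 1 of Bglap and 11 of Ibsp. The sums at day 3 all lay below those at day 0, and the sums at day 9 and day 0 overlapped. Sost, a gene of the planned bone and cartilage list, is not among the 6. It averaged 1.95, 0.234 and 2.19 CPM at days 0, 3 and 9. With edgeR it was called lower at day 3 against day 0 (log2 fold change -3.00, adjusted p = 0.0185). It was called higher at day 9 against day 3 (3.17, adjusted p = 0.0236). The mean log2 CPM of the 6 genes was -1.49 in day 3 replicate 4 and 2.78 to 4.73 in the other libraries. A fit with this mean as a covariate thus leans strongly on that library. With this covariate in edgeR, Ctsk passed at day 9 against day 0 (1.71, adjusted p = 0.00228) and not at day 9 against day 3 (1.28, adjusted p = 0.0814). In the same fit Atp6v0d2 still passed in both, whereas Dcstamp (1.45, adjusted p = 0.136) and Nfatc1 (0.41, adjusted p = 0.181) did not pass at day 9 against day 3, where their log2 values without the covariate were 1.85 and 0.57.

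**Figure D3:**
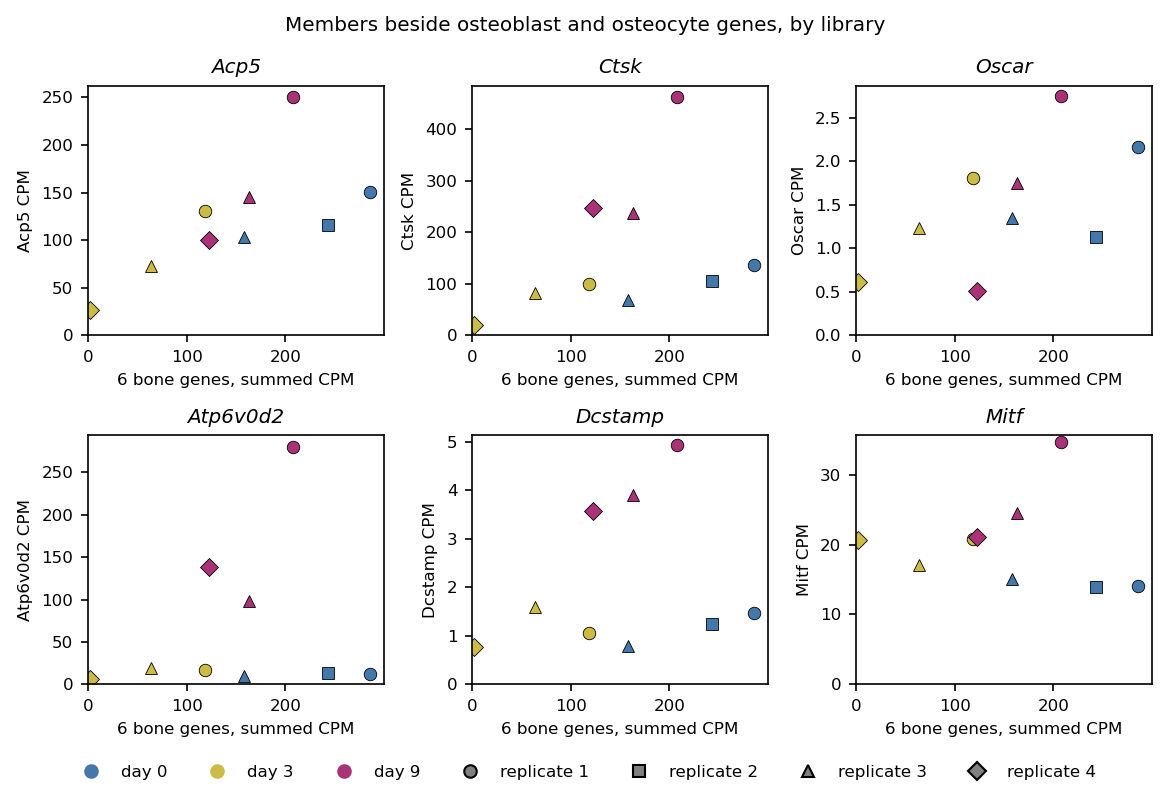
CPM of 6 of the genes against the summed CPM of 6 osteoblast and osteocyte genes in the same library, 1 point per library, coloured by day and shaped by replicate (linear axes from 0). Acp5 is low where bone genes are low, down to 26.0 CPM at 2.36 CPM of bone genes. The 3 day 9 libraries of Atp6v0d2, Dcstamp, Ctsk and, narrowly, Mitf have higher CPM than all others.

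Of 14 other genes of the resorption apparatus, 8 were called at day 9 against day 0 and 6 at day 9 against day 3, all higher, where 15.2% and 5.19% of all genes were. Mmp14, a membrane collagenase, averaged 505 ± 55.7 CPM in day 9 libraries and 120 ± 27.6 CPM in those of day 0 (SD, n = 3 each, edgeR log2 fold change 2.07, adjusted p = 0.000459). The sum of the fibroblast markers, too, was highest in the day 9 libraries, and their part in the level of Mmp14 was not tested. Ckb, a creatine kinase that feeds the pump with ATP, Clcn7, the chloride transporter of the resorbing membrane, and Itgav, an integrin chain, had log2 fold changes of 1.60, 1.14 and 0.92. The osteoclast genes Car2, Mmp9 and Itgb3 had values of -1.30, 0.40 and 0.32 in this comparison and did not pass.

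Among 24 tested genes of macrophage fusion and giant cells, 14 were called higher and 1, Myo10, lower at day 9 against day 0, where 15.2% and 5.54% of all genes were, with a median log2 fold change of 0.76. Mmp12, the macrophage elastase, and Spp1, osteopontin, had log2 fold changes of 8.67 and 3.34. Tm4sf19, a tetraspanin-like protein of multinucleated osteoclasts, was at 17.1, 4.77 and 8.59 CPM in day 9 replicates 1, 3 and 4, against 1.11, 0.25 and 0.45 CPM in the day 0 libraries (edgeR log2 fold change 4.05, adjusted p = 0.00417). Like Dcstamp and Atp6v0d2, it was not called at day 3 against day 0 (1.10, edgeR adjusted p = 0.281). Adam8 and Cd44, surface proteins of fusing macrophages, were called higher at day 3 (2.05 and 1.21) as well as at day 9 (2.52 and 1.66). The fusion-inducing cytokine genes Il4 and Il13 were at 0.308 CPM or less in every library and were not tested.

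Counted together, 0 of the 9 genes were called higher and 0 lower by edgeR at day 3 against day 0, where 12.9% of all tested genes were called higher and 3.29% lower. At an unadjusted p under 0.05 there were 3, Nfatc1, Mitf and Calcr, where 33.1% of all genes had such a p. DESeq2 and limma-voom each called 1 lower, Nfatc1, where they called 8.56% and 4.36% of all genes lower. Between days 9 and 0, 3 were called higher (Dcstamp, Atp6v0d2 and Mitf), where 15.2% of all genes were, and 4 with DESeq2, which added Ctsk and called 17.1% of all genes higher. In that comparison 0 of 9 were called lower by edgeR, DESeq2 or limma-voom, which called 5.54%, 10.7% and 6.03% of all genes lower in that order. At an unadjusted p under 0.05, 1 of the 9, Calcr, was lower, as were 13.1% of all genes. Between days 9 and 3, 4 were called higher (Dcstamp, Ctsk, Atp6v0d2 and Nfatc1), where 5.19% of all genes were. None of the 9 was called lower there by edgeR, DESeq2 or limma-voom, which called 3.66%, 7.21% and 3.46% of all genes lower in that order, or was lower at an unadjusted p under 0.05, as 13.7% of all genes were. The median log2 fold change of the 9 was -0.34 at day 3 against day 0, 0.53 at day 9 against day 0 and 0.57 at day 9 against day 3, against 0.05, 0.01 and -0.04 over all genes. The count at day 9 against day 3 was 1 without day 9 replicate 1 or day 9 replicate 4, and 2 without any 1 day 0 library, without day 3 replicate 1 or without day 9 replicate 3. Without the 3 libraries high in cartilage genes it was 0, where Atp6v0d2 had an adjusted p of 0.0559. Calls over all genes moved as well, from 1310 in the main fit to between 355 and 4098 when 1 library was left out. They also fell without the 3 libraries, as given in the closing section, so these counts do not set the 9 apart from other genes.

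**Figure D4:**
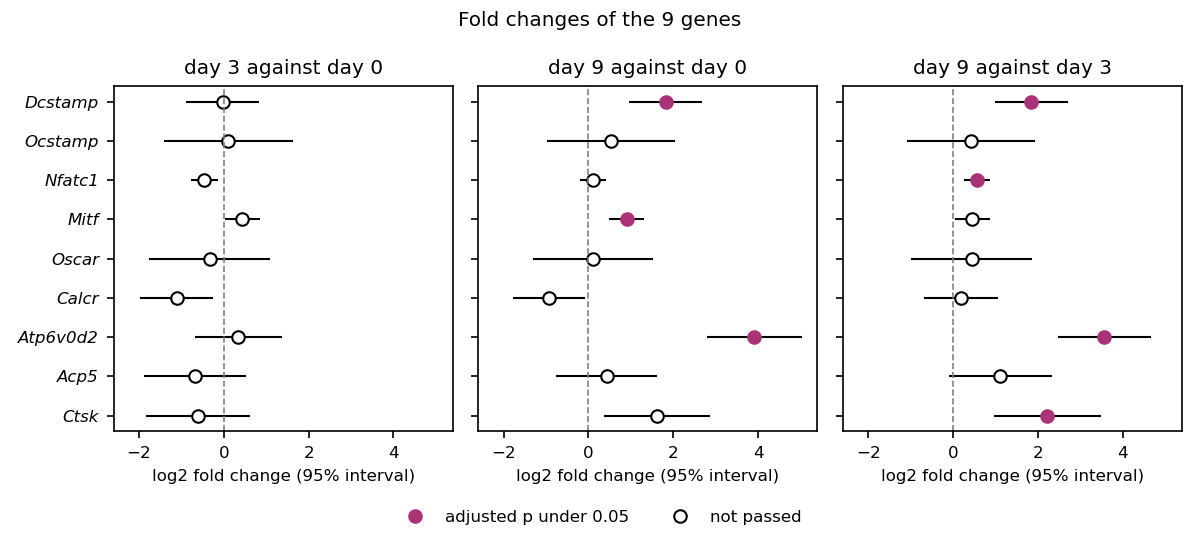
edgeR log2 fold changes (points) with 95% intervals (lines) of the 9 genes in 3 comparisons between days, filled where the adjusted p was under 0.05. No point is filled at day 3 against day 0, 3 are at day 9 against day 0 and 4 at day 9 against day 3.

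In the authors' deposited table the same comparisons gave 4 genes at day 9 against day 0 with an FDR under 0.05, Dcstamp (0.015), Ctsk (0.000984), Atp6v0d2 (1.23e-26) and Mitf (0.00491). The authors' deposited table had 3 at day 9 against day 3, Dcstamp (0.0298), Ctsk (3.13e-06) and Atp6v0d2 (2.47e-21), with Nfatc1 at 0.148.

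Macrophage markers were higher at the later days and give a second scale for these genes. The 8 markers summed to 1319 to 1392 CPM at day 0, 2084 to 3234 CPM at day 3 and 3637 to 4504 CPM at day 9. Most of these sums was Lyz2, which averaged 1191, 1906 and 3173 CPM at days 0, 3 and 9. Against day 0, 6 of 8 were called higher at day 3 and 7 of 8 at day 9, where 12.9% and 15.2% of all genes were. The mean log2 CPM of these markers was subtracted from each gene. On that scale Atp6v0d2 averaged 0.66 ± 0.51 at day 9 and -1.03 ± 0.38 at day 0 (SD, n = 3 each), and it was the 1 gene of the 9 whose relative value was higher at day 9 than at day 0. Dcstamp averaged -4.56 ± 0.11 at day 9 and -4.22 ± 0.57 at day 0 and Ctsk 1.60 ± 0.27 at day 9 and 2.09 ± 0.66 at day 0, with overlapping days. Mitf averaged -1.92 ± 0.17 at day 9 and -0.69 ± 0.10 at day 0, and Nfatc1 -0.43 ± 0.23 at day 9 and 1.56 ± 0.18 at day 0, without overlap. At day 3 the relative value of each of the 9 was below that of day 0 with no overlap, with differences of -1.475 (Mitf) to -2.89 (Calcr) on the log2 scale. The marker mean itself was 4.44 to 4.73 at day 0 and 6.31 to 6.68 at day 3, so a gene of unchanged CPM falls too. The share of all genes that fell without overlap on this scale was not counted, so the fall cannot be read as particular to the 9. The exact permutation test, two-sided, cannot go below p = 0.1 with 3 libraries against 3.

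**Figure D5:**
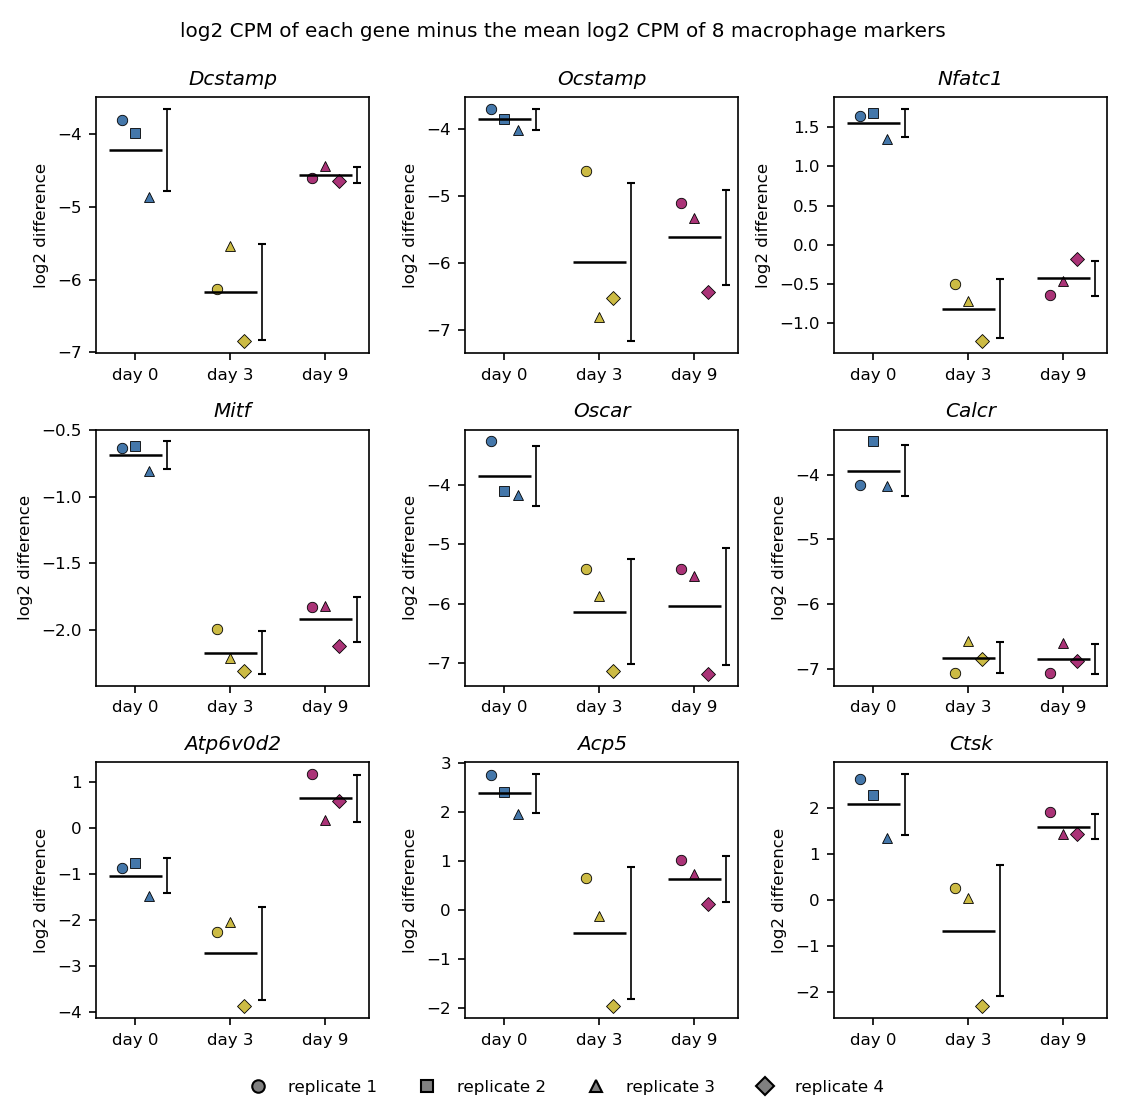
log2 CPM of each gene minus the mean log2 CPM of 8 macrophage markers in the same library, by day, with 1 point per library, a line at the mean and a bar of 1 SD (n = 3). All 9 genes are lowest or near their lowest at day 3, and Atp6v0d2 is the gene whose day 9 mean (0.66) exceeds its day 0 mean (-1.03). The marker mean was itself higher at days 3 and 9, which lowers a gene of unchanged CPM.

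Genes with the most similar profile were found by Pearson r of log2 CPM over the 9 libraries, as a description, since the libraries fall into 3 days and share their scaling. Atp6v0d2 was most like Slamf7, a leukocyte receptor (r = 0.997), Gpr137b, a lysosomal membrane protein (0.993), and Uhrf2, a ubiquitin ligase (0.988). Slamf7 was at 62.4, 22.1 and 35.2 CPM in day 9 replicates 1, 3 and 4 and at 2.59 to 6.10 CPM in the other 6 libraries. Dcstamp was most like Fgd4 (0.981), Mt3 (0.972) and Tnc (0.970), and its r with Atp6v0d2 was 0.969. Acp5 was most like Pth1r, the parathyroid hormone receptor of osteoblasts (0.970), Slc9b2, a sodium-proton exchanger of osteoclasts (0.966), and Sfxn2 (0.958). Ctsk was most like Abcc5 (0.983), Zfp61 (0.982) and Npas4 (0.971).

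Mitf was most like Mrgpre (0.985), the pump accessory gene Atp6ap1 (0.979) and the lysosomal acid phosphatase gene Acp2 (0.972), and Nfatc1 was most like Ecm2 (0.980), Id4 (0.976) and Tnxb (0.968). Ocstamp was nearest to Slc13a5 (0.957), Ecrg4 (0.945) and Scin (0.937), all of them highest in replicate 1 of days 3 and 9. Oscar was nearest to Xpr1 (0.912), Cntd1 (0.888) and Rufy4 (0.855), and Calcr to Notch3 (0.921), Fsd1l (0.921) and Bfsp2 (0.915).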

How the data were processed

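Bulk poly(A) RNA-seq of 9 libraries, 3 per day, was analysed from 1 table of the whole series. The authors deposited, per gene and library, counts of reads, and per comparison their own log2 fold changes and FDR-adjusted p-values. GRCm38 and mm10 are named in the submitters' processing notes, and for the aligner and the counter the sources used here give no name. Of 25597 identifiers shared with GENCODE M21 only 551 had its coordinates, so no coordinates of the table are given. A further 27 per-sample columns (other scalings of the same libraries) were not used, and 3 emptied lines were left out. No strand is stated, so reads of overlapping genes may be counted for either.

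Counts were filtered with filterByExpr by day (14794 of 25652 genes left) and tested with edgeR 4.0.16 (limma 3.58.1, R 4.3.3): TMM factors, quasi-likelihood F test, 1 mean per day over all 9 libraries (6 residual degrees of freedom), two-sided, with Benjamini-Hochberg adjustment over all tested genes. log2 CPM used a prior count of 2. DESeq2 1.42.0 and limma-voom were among the alternatives. The tests were also run on simulated counts, with the same dispersion for every gene and no differences in tissue makeup. That setting is unlike these libraries, so the simulation does not show how the tests perform on them. Figures used Python 3.11.15 and matplotlib 3.10.9. Depth was 12769059 to 18701063 counts per library. Pairs of libraries of 1 day differed by a chi-square per degree of freedom of 8.52 to 150, so each was counted once.

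The 9 genes, the gene lists (188 entries, 187 in the table) and the tests were chosen with earlier results of these data known. Named beside the 9 were up to 4 called genes per list with the largest log2 fold change, fixed partners such as Tnfsf11 and Tcirg1, and the 3 most similar genes of each. Traf6, Myo10, Tfe3, Tfeb, Il4, Il13, Lyz2, Col1a1 and Pdgfra were named after their values were seen. Promoter sequences are from RefSeq.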

Additional observations from a re-analysis of the deposited data

How the results depend on the processing

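The call of Atp6v0d2 at day 9 against day 0 held in all 21 alternative settings, and its call at day 9 against day 3 in 20. At day 3 against day 0, Nfatc1 was called lower, as 1 gene, with DESeq2 size factors, DESeq2 and limma-voom, and over the fits that left out 1 library the number called lower was 0 to 1. For day 9 over day 0 the number called higher was 1 without the 3 libraries high in cartilage genes. For day 9 over day 3 it was 1 with only the 6 libraries of the 2 days and with the osteoblast covariate (added after seeing the data), 2 with the bone and cartilage covariate, 0 without the 3 libraries and 1 to 4 leaving out 1 library. For any difference between days it was 3 with the bone and cartilage covariate, 1 without the 3 libraries and 2 to 5 leaving out 1 library. For that test the calls over all genes in these fits were not counted. These losses came with fewer samples or an added term, and the cause was not tested.

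Counts over all genes moved more. At day 3 against day 0 there were 2390, against 924 with the 6 libraries, 734 without the 3, 899 with the osteoblast covariate and 818 to 5179 leaving out 1 library. Between days 9 and 0 there were 3066, against 6332 with the 6 libraries, 4978 with the alveolar type 2 covariate, 1344 without the 3 and 1661 to 5018 leaving out 1 library. Between days 9 and 3 there were 1310, against 2401 with DESeq2, 258 with the 6 libraries, 172 without the 3, 261 with the osteoblast covariate and 355 to 4098 leaving out 1 library.

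Directions that turned were all of fold changes that did not pass. At day 3 against day 0 the log2 fold change of Dcstamp was 0.05 without scaling, 0.29 with the alveolar type 2 covariate and 0.41 with the osteoblast covariate, and -0.41 to 0.18 leaving out 1 library. That of Ocstamp was -0.26 with limma-voom, -1.18 with the alveolar type 2 covariate and -0.91 without the 3 libraries, and -0.93 to 0.45 leaving out 1. With the osteoblast covariate Acp5 was at 0.28, Ctsk at 0.43 and Oscar at 0.47. At day 9 against day 0, Ocstamp was at -0.054 with the alveolar type 2 covariate. Acp5 was at -0.12 without the 3 libraries and -0.001 to 0.69 leaving out 1. Oscar was at -0.09 with limma-voom, -0.26 with the bone and cartilage covariate and -0.52 without the 3 libraries, and -0.43 to 0.53 leaving out 1. At day 9 against day 3, Ocstamp was at -0.014 with the bone and cartilage covariate and -0.20 with the osteoblast covariate, and -0.023 to 1.46 leaving out 1. Oscar was at -0.04 and -0.32 with these covariates, and -0.034 to 0.93 leaving out 1. Calcr was at -0.035 without the 3 libraries.

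The main fit did not pair samples by replicate number, and whether the numbers mark pairs was not settled. Deviations of same-numbered samples correlated at -0.07 and -0.09 (day 3 against day 0), -0.15 and -0.02 (day 9 against day 0) and 0.47, 0.32 and -0.25 (day 9 against day 3). No values of differently numbered samples were set beside these. With the replicate number as a block, Atp6v0d2 was the 1 gene called at day 9 against day 0, at day 9 against day 3 and for any difference, the calls over all genes were 214 at day 3 against day 0, 900 for day 9 over day 0 and 127 for day 9 over day 3, and Dcstamp was at 0.19 at day 3 against day 0.

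Depth limits Dcstamp, Ocstamp, Oscar and Calcr, which had 7 to 76 reads per library.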
